A study of Mus musculus with 6 samples.

Results

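The contactins and the L1-type cell adhesion molecules were followed in immortalized cardiosphere-derived cells of the mouse before and after induction with 5-azacytidine. The group comprised 10 genes chosen by name, out of 54532 genes in the expression table. Contactins were represented by Cntn1, Cntn2, Cntn3, Cntn4 and Cntn6, L1-type molecules by L1cam, Nrcam, Chl1 and Nfasc, and the neural cell adhesion molecules by Ncam1. The genes were put together with their difference between induced and control cells already known, so their values in this contrast are given as a description, without p-values.

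All of these proteins belong to the immunoglobulin superfamily, with immunoglobulin-like and fibronectin type III domains outside the cell. Contactins are held in the membrane by a glycosylphosphatidylinositol (GPI) anchor and signal through partners beside them. L1-type molecules and the long forms of Ncam1 span the membrane, and L1-type molecules bind ankyrin, which links them to the spectrin skeleton. They are best known for axon growth, myelination and the node of Ranvier, and many bind each other on the same or on the opposite cell.

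RNA sequencing was performed on cells of a line grown from C57BL/6 heart explants (heart ventricle by the labels, ventricular epicardium by the study's methods) and kept dividing by a human telomerase (hTERT) transgene under a CMV promoter, which both groups carried. Control cells, labelled iCDC, were at passage 30, and 3 libraries were made. Induced cells, 3 libraries, were iCDC of passage 30 that had received 10 µM 5-aza for 3 days and then 4 weeks of culture in IMDM with 2% FBS. The methods of the study give another medium and a shorter culture for the induction, and nothing says how long control cells were kept, so drug, serum and time in culture cannot be told apart.

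Total counts were 19041133 to 19823369 reads per library. The labels call the libraries separate samples, and the study's methods speak of biological replicates, with another number per group than deposited. The study's figure legend for this comparison gives the deposited number. None of these says that the libraries came from separate cultures, so p-values measure only the spread between these samples, which may in part be technical. Pairs of libraries within a group differed by more than sampling noise, most of all the pairs that held induced replicate 2 (chi-square per degree of freedom 8.04 and 8.91, against 2.56 to 4.68 for the other pairs). A list of 13 epicardial and mesenchymal markers, all of them tested, was detected in both groups, but 7 markers were higher and 6 were lower in induced cells. Their summed level was 15985 to 16765 CPM in control and 16373 to 17066 CPM in induced libraries (CPM, counts scaled to the effective library size after TMM).

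Chl1 was the most abundant transcript of the family in control cells and Cntn2 in induced cells. Cntn2 rose 57.2-fold, Chl1 fell 6.37-fold, and Cntn3 went from 0 reads to a low level. Nfasc, Nrcam and Ncam1 rose by 1.91- to 2.76-fold, and Cntn1, Cntn4, Cntn6 and L1cam had at most 15 reads in any group. In bulk RNA, fewer cells of a type and less RNA per cell cannot be told apart. The read filter kept 6 of the 10 genes, and these 6 were past an adjusted p of 0.05 in edgeR's quasi-likelihood test over all genes, 5 higher and 1 lower in induced cells. Over all 14246 genes tested, 64.8% passed the same threshold, 32.6% higher and 32.2% lower, and because the genes were chosen on this contrast nothing is read from their count. For 5 of the 6 the libraries of both groups did not overlap, as was the case for 68.6% of tested genes.

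**Figure D1:**
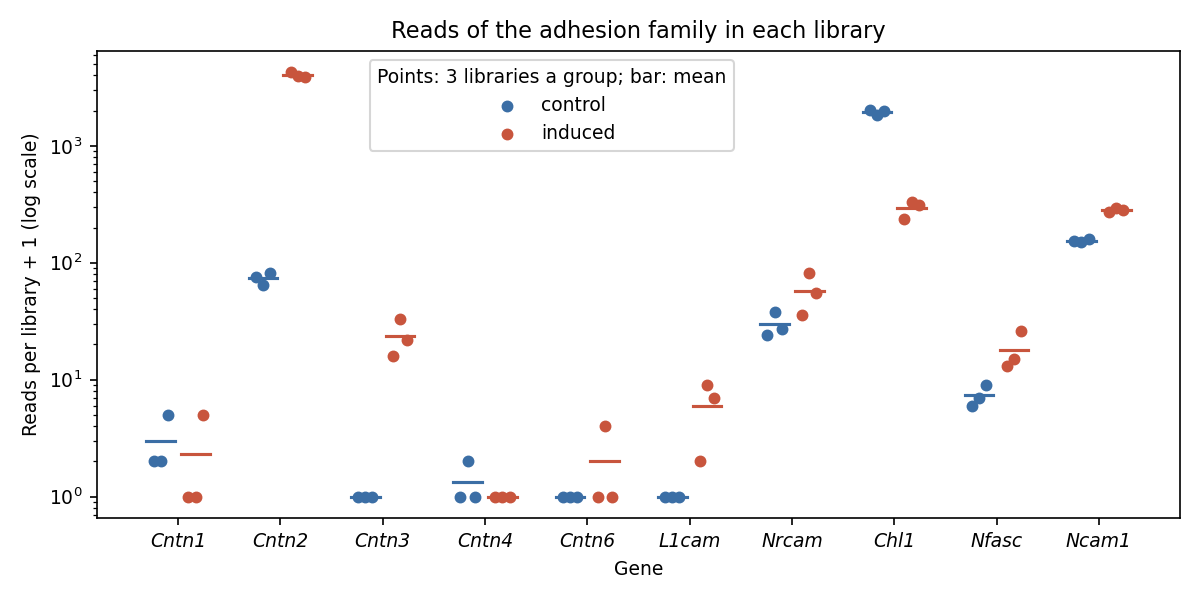
Reads of each of the 10 genes in each library, plus 1, on a log scale; points are the 3 libraries of a group and bars their means. Cntn2 and Chl1 sit far apart between groups in opposite directions, Cntn3, Cntn6 and L1cam have no reads in any control library, and the points of Nrcam overlap.

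Since 5-azacytidine acts on methylation of cytosine in CG dinucleotides, the CG content of the promoters is given as background to each gene. RefSeq windows of 300 bases (GRCm38.p6, 250 bases before and 50 after a transcript start) were matched for 9 of the 10 genes, 14 windows in all. Of these, 9 lie more than 1 kb inside the gene, at the start of a shorter transcript, and say nothing of the outermost promoter. The median over all 32851 windows was 7 CG. Cntn2 and Chl1 had 13 CG each, and 37.9% of all windows held at least as many. Their starts lie 0.316 kb (Cntn2) and 0.29 kb (Chl1) inside the gene. Of the 250 bases before the start, annotated exons of the gene itself cover 103 for Cntn2 and all 250 for Chl1. Nrcam had 37, a number reached by 5.58% of windows, and both L1cam windows had 22 or more. The Cntn3 window had 0 CG, as did 5.43% of windows, but it lies 108 kb inside the gene. The L1cam windows lie 15.3 kb inside. CG was the only motif searched, and its reverse complement is itself. These counts are a description of the sequence, and methylation was not measured.

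The range of CG content among genes with more reads in induced cells is shown by 4 windows. That of Nrcam lies at the 5′ end of its gene and that of Cntn2 0.316 kb inside, while those of Cntn3 and L1cam lie at an inner start. Each is cut to the longest stretch before the start that no exon of the GENCODE M21 annotation covers. They are written 5′ to 3′ on the strand of the gene, with every CG in capitals. Positions are chr1:132542941-132543028 (minus strand) for Cntn2, chr6:102464668-102464917 (minus strand) for Cntn3, chr12:44328635-44328884 (plus strand) for Nrcam and chrX:73880835-73881084 (minus strand) for L1cam.
Cntn2: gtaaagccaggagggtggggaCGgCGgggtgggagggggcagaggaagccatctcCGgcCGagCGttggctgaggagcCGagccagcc
Cntn3: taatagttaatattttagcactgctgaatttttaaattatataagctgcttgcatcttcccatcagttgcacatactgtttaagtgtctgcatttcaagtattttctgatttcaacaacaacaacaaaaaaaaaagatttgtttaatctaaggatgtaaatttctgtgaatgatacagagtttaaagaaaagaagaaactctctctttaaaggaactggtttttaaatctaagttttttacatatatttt
Nrcam: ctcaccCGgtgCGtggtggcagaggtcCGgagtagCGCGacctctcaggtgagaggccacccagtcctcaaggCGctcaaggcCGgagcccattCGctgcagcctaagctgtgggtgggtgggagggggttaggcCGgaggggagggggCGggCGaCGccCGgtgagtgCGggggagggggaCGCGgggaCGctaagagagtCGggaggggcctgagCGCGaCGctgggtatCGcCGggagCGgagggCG
L1cam: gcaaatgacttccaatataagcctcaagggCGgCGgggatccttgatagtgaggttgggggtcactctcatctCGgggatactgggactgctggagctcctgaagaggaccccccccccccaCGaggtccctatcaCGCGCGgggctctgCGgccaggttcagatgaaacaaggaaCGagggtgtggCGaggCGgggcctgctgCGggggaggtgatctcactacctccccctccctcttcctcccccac

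Cntn2 (ENSMUSG00000053024, chromosome 1, 132509427 to 132543256, minus strand) encodes contactin 2, also called TAG-1, which is known for guiding axons and for holding potassium channels beside the node. It had 75, 64 and 81 reads in control replicates 1 to 3 and 4277, 3952 and 3867 reads in induced replicates 1 to 3. All induced libraries lay far above all control libraries. Control libraries averaged 3.70 ± 0.406 CPM and induced libraries 212 ± 13.0 CPM (SD, n = 3), a log2 fold change of 5.84 with an SE of 0.08. Scaled by gene length and depth as FPKM, a value deposited by the authors, the level of Cntn2 was above that of 10.6% of tested genes in control and of 83.3% in induced cells. Cntn2 was the 91st largest rise by fitted fold change, and with any single library left out its log2 fold change stayed between 5.75 and 5.91.

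Chl1 (ENSMUSG00000030077, chromosome 6, 103510586 to 103750211, plus strand), the close homologue of L1, promotes neurite growth and interacts with integrins. Control libraries had 2004, 1815 and 1971 reads of Chl1 and induced libraries 237, 327 and 308. The groups were well separated, and Chl1 was the one tested member that was lower in induced cells. The level fell from 97.5 ± 4.63 to 15.3 ± 2.41 CPM (SD, n = 3), with a log2 fold change of -2.67 and an SE of 0.08. By FPKM it stood above 61.2% of tested genes in control cells and above 23.3% in induced cells. Its coefficient of variation was 4.75% in control and 15.7% in induced libraries, where counting error alone gives 5.87%, and induced replicate 1 was the lowest library.

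Summed over the 10 genes, FPKM was 9.29 ± 0.409 in control and 26.3 ± 1.06 in induced cells (SD, n = 3). The sum of the L1-type genes was 7.99 ± 0.357 and 1.57 ± 0.314 FPKM, although Chl1 was the only one of them that fell, and that of the contactins 0.407 ± 0.0482 and 23.0 ± 1.35 FPKM. Chl1 made up 84.3% to 85.4% of the sum in control libraries and 3.73% to 5.34% in induced libraries. Cntn2 made up 3.93% to 4.58% of it in control libraries and 85.3% to 89.1% in induced libraries, so both sums rest on a single gene each.

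**Figure D2:**
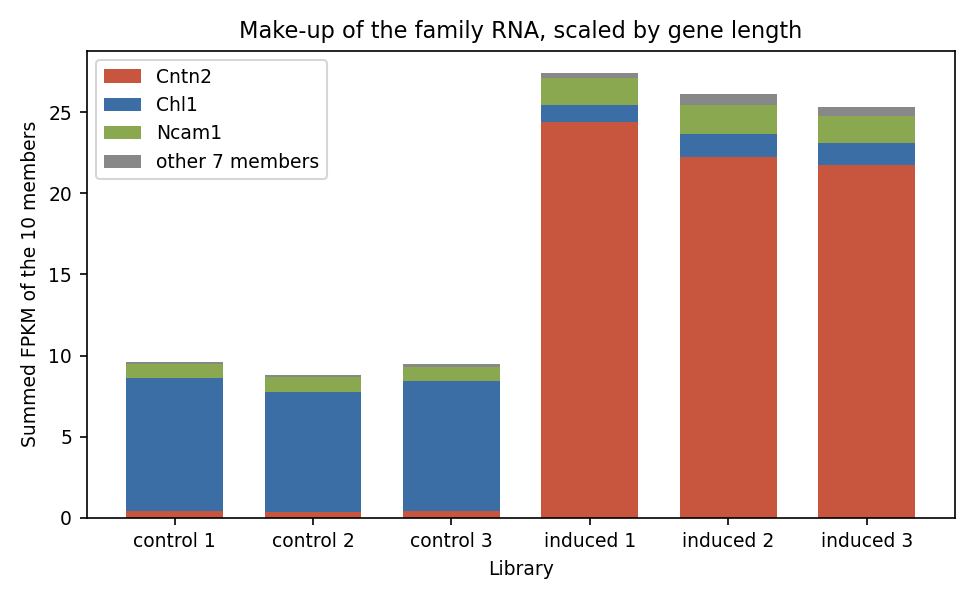
FPKM summed over the 10 genes in each library, stacked by gene, with the 7 least abundant genes together. Chl1 fills most of each control bar and Cntn2 most of each induced bar, and the induced bars are taller.

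Among the remaining contactins, Cntn3 (ENSMUSG00000030075, chromosome 6, 102162655 to 102573101, minus strand), a contactin of the brain also known as BIG-1, was the only gene with enough reads to be tested. It had 0 reads in each control library and 15, 32 and 21 reads in induced replicates 1 to 3. Every induced library had reads where no control library did. With its induced reads taken as counted, Cntn3 was at least 23.6-fold higher in induced cells against a limit of 3 reads over the control group. Its level in induced cells was low, 1.19 ± 0.450 CPM (SD, n = 3), above that of 3.89% of tested genes by FPKM. No reads in any control library were found for 31879 genes of the table, and 51 of these had at least 10 reads in every induced library, Cntn3 among them.

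The other contactins stayed near the limit of detection. Cntn1, a paranodal protein that binds sodium channels and Notch, had 1, 1 and 4 reads in control and 0, 0 and 4 in induced replicates 1 to 3. The ratio of its pooled reads, induced over control, was 0.695 with a 95% exact binomial interval of 0.144 to 2.93. Cntn6 had no reads in control cells and 0, 3 and 0 in induced replicates 1 to 3, and Cntn4, the contactin with the longest gene here at 1022 kb, had 1 read in control replicate 2 and none elsewhere. Cntn5, the contactin not counted among the 10 genes, had 0 reads in all 6 libraries. The limit set by 3 counts was 0.150 to 0.159 CPM depending on the library, so small differences in Cntn1, Cntn4, Cntn5 or Cntn6 were not detectable at this depth.

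Of the L1-type genes other than Chl1, each was higher in induced cells but at a low level. Nrcam (ENSMUSG00000020598, chromosome 12, 44328885 to 44601964, plus strand), which binds contactins and semaphorin receptors, had 23, 37 and 26 reads in control and 35, 81 and 54 in induced replicates 1 to 3. The highest control library exceeded the lowest induced library, so the groups overlapped. Nrcam rose by 1.04 on the log2 scale with an SE of 0.30, with a mean of 1.45 ± 0.382 CPM before and 2.98 ± 1.21 CPM after induction (SD, n = 3). The coefficient of variation in induced libraries was 40.5%, where counting alone gives 13.3%, and without induced replicate 2 the log2 fold change was 0.70.

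Nfasc (ENSMUSG00000026442, chromosome 1, 132564690 to 132741797, minus strand) encodes neurofascin, which gathers sodium channels at the axon initial segment and at the node. There were 5, 6 and 8 reads in control and 12, 14 and 25 in induced libraries. The groups did not overlap, and the highest value came from induced replicate 3. Nfasc rose by 1.47 on the log2 scale with an SE of 0.44, with a mean of 0.320 ± 0.0746 CPM before and 0.894 ± 0.363 CPM after induction (SD, n = 3). Its call was lost without induced replicate 3, where the log2 fold change was 1.09.

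L1cam (ENSMUSG00000031391, chromosome X, 73853778 to 73896105, minus strand), the founding member of the L1 type, had 0 reads in each control library and 1, 8 and 6 reads in induced replicates 1 to 3. It had too few reads to be tested. With its induced reads taken as counted, it was at least 5.21-fold higher in induced cells against 3 reads over the control group. Counting error of the 15 induced reads is not in this value. Exons of Arhgap4 cover 1.36% of the exon bases of L1cam, and how many of its few reads lie there was not examined.

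**Figure D3:**
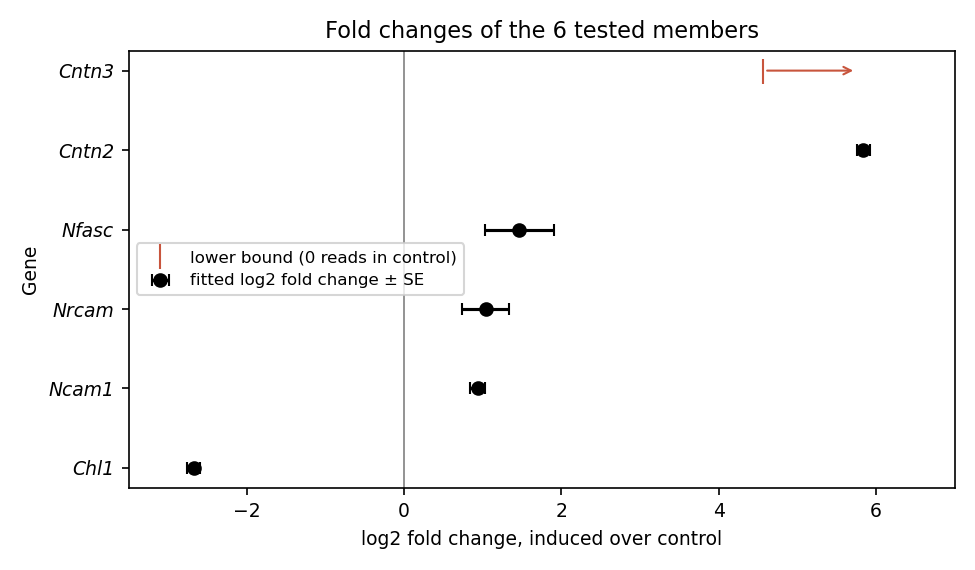
Log2 fold changes, induced over control, of the 6 tested genes, with bars of 1 SE. Cntn3 is drawn as a lower bound with an arrow because it had 0 reads in control cells, and its induced reads are taken as counted. Chl1 lies at -2.67 and Cntn2 at 5.84, with Nfasc, Nrcam and Ncam1 between 0.93 and 1.47.

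Ncam1 (ENSMUSG00000039542, chromosome 9, 49502136 to 49798925, minus strand) mediates homophilic adhesion and signals through the FGF receptor. It was the steadiest gene of the family between replicates, with 153, 149 and 158 reads in control and 272, 290 and 282 in induced replicates 1 to 3. The groups lay clearly apart. Ncam1 rose by 0.93 on the log2 scale with an SE of 0.10, with a mean of 7.75 ± 0.161 CPM before and 14.8 ± 0.400 CPM after induction (SD, n = 3). Exons of another gene on the opposite strand, Gm11149, cover 4.81% of its exon bases, and reads of both cannot be told apart without strand. Its paralogue Ncam2 (chromosome 16, 81200697 to 81626828, plus strand), an adhesion molecule of olfactory axons, moved the other way. Ncam2 had 11, 18 and 17 reads in control and 0, 0 and 2 in induced libraries. The ratio of pooled reads was 0.0453 with a 95% exact binomial interval of 0.00533 to 0.173, and the edgeR adjusted p was 6.14e-05.

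The order of levels, compared per length as FPKM, changed between groups. In control cells it ran from Chl1 (7.86 ± 0.385) to Ncam1 (0.887 ± 0.0203), Cntn2 (0.395 ± 0.0441), Nrcam (0.108 ± 0.0281), Nfasc (0.0224 ± 0.00527), Cntn1 (0.0106 ± 0.00909) and Cntn4 (0.00198 ± 0.00343; FPKM, SD, n = 3), with Cntn3, Cntn6 and L1cam at 0. The libraries of Nfasc and Cntn1 and those of Cntn1 and Cntn4 overlapped, and every other neighbouring pair above 0 was separate. In induced cells it ran from Cntn2 (22.8 ± 1.41) to Ncam1 (1.71 ± 0.0437), Chl1 (1.24 ± 0.194), Nrcam (0.223 ± 0.0899), Cntn3 (0.177 ± 0.0665), Nfasc (0.0632 ± 0.0257), L1cam (0.0357 ± 0.0257), Cntn6 (0.00807 ± 0.0140) and Cntn1 (0.00740 ± 0.0128; FPKM, SD, n = 3), with Cntn4 at 0. From Cntn2 down to Nrcam, neighbours in this order did not overlap. Nrcam overlapped Cntn3, Nfasc overlapped L1cam, L1cam overlapped Cntn6, and Cntn6 overlapped Cntn1, while Cntn3 and Nfasc did not overlap.

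Among 7 genes that reached 10 reads in the induced group, induced replicate 1 was the lowest library for 6, and induced replicate 2 was the highest for 5. Over tested genes with as many reads, these shares were 32.0% and 37.9%. For Ncam1 the libraries differed by less than counting error, with a coefficient of variation of 2.70% against 5.96%. Cntn2 was instead highest in induced replicate 1. Without induced replicate 2, all 6 tested genes kept their call and direction.

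Many of these genes lie side by side in the genome. On chromosome 6, Cntn3, Chl1, Cntn6 and Cntn4 follow each other in a block of 4.54 Mb. The table holds 27 genes in that block, and these 4 are its only protein-coding genes. The other 23 annotated genes, all noncoding RNAs, pseudogenes or unclassified transcripts, had 4 reads together in the 6 libraries. Within the block Chl1 fell, Cntn3 appeared 937 kb away, and Cntn6 and Cntn4 stayed at 3 reads or fewer in either group.

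On chromosome 1, Cntn2 and Nfasc are neighbours on the same strand, with 21.4 kb between them. Within 500 kb of Cntn2, a window chosen after the values were seen, 11 other genes were tested. Of these, 7 (Nfasc among them) were higher, 1 was lower and 3 were not past the threshold (log2 fold changes -0.29 to 3.03). Over all tested genes 64.8% were called, 32.6% higher and 32.2% lower, the shares to set beside this and the next windows. In the same window around Ncam1, which rose, 3 genes were tested, 0 were higher and 2 were lower. Around Nrcam all 3 tested genes were higher, around L1cam 12 of 31 were higher and 11 lower, and around Chl1 and Cntn3 no other gene was tested. Tmem81 and Rbbp5, the next tested genes on the other side, had log2 fold changes of 0.82 and 0.01, the first of them past the threshold. Klhdc8a rose by 3.03 and Nuak2 by 1.98, and no tested neighbour reached the 5.84 of Cntn2.

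**Figure D4:**
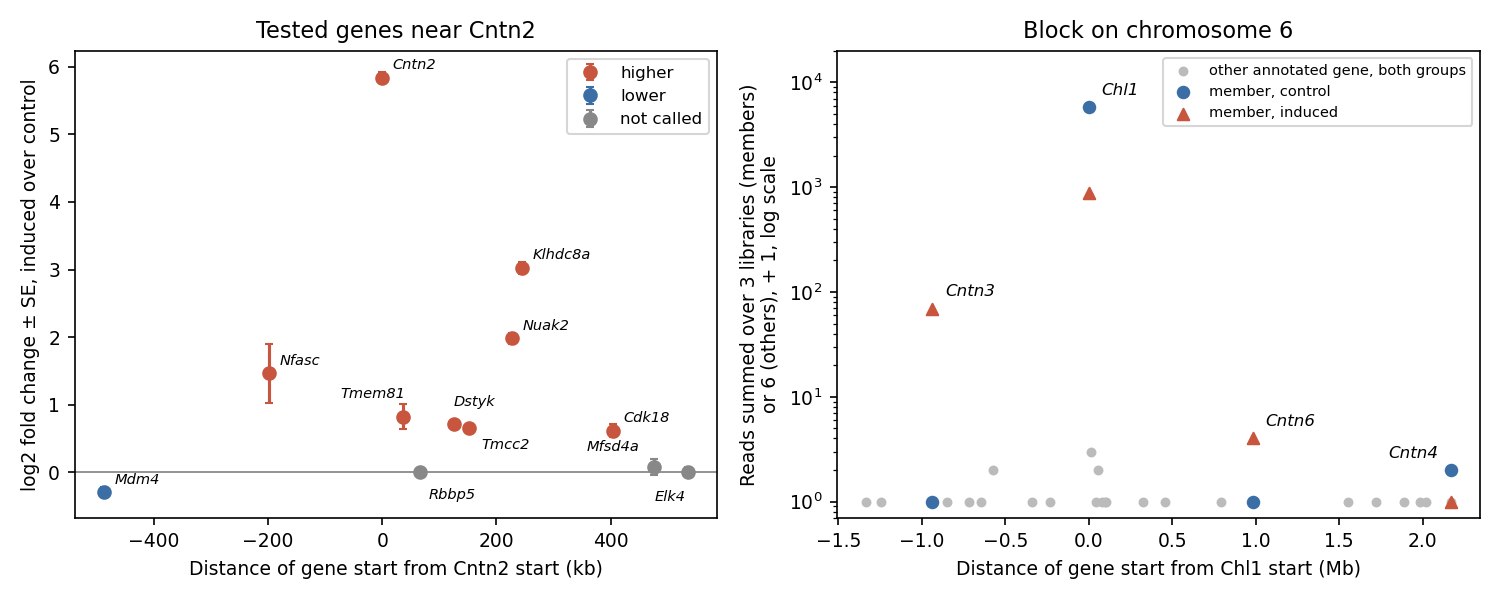
Left, log2 fold change with 1 SE of tested genes by the distance of their start from that of Cntn2, positive in the direction of Cntn2 transcription; right, reads plus 1 on a log scale of genes in the block on chromosome 6, by distance from the start of Chl1. Cntn2 stands above all its tested neighbours, and Chl1 and Cntn3 are the only genes of the block above 3 reads in a group.

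Cntn5, Ncam2 and 5 lists of partners and other adhesion genes held 131 genes, of which 94 were tested. Of these, 50 were higher and 28 were lower in induced cells, 83.0% of those tested, against 64.8% of all genes. Their median log2 fold change was 0.22, where the median of all tested genes was -0.01. The lists were drawn up with earlier results of these data known, so nothing is read from these shares and medians or from those of each list. From each list the genes with the smallest p are named first, and further genes were picked out after their values were seen.

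Of 21 partners and ligands of contactins, 13 were tested, with 9 higher, 3 lower and a median log2 fold change of 0.87. Prnp, the prion protein and like contactins a GPI-anchored protein, had 3757, 3538 and 3780 reads in control and 13901, 14325 and 13619 in induced libraries. It rose by 1.98 with an SE of 0.05 (log2, edgeR adjusted p 1.15e-16). Prn, on the same strand, shares 6.19% of the exon bases of Prnp. Aplp1, a relative of the amyloid precursor protein App, rose by 2.20 (log2, edgeR adjusted p 2.74e-16). App itself, which binds several contactins, rose by 0.87. The matrix proteoglycan Vcan had a log2 fold change of -1.71 (edgeR adjusted p 1.80e-14).

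Ptprz1, a receptor phosphatase that contactins bind, had 2 reads in every control library and 148, 131 and 87 in induced replicates 1 to 3. It rose by 5.90 on the log2 scale with an SE of 0.37 (edgeR adjusted p 9.80e-11), next to Cntn2 in size. Its soluble ligands Mdk and Ptn rose by 2.61 and 1.00, and the libraries of Ptn overlapped between groups. Cntnap1, the membrane partner of Cntn1, rose by 1.41 (edgeR adjusted p 3.68e-10). Plekhh3 on the opposite strand covers 3.97% of the exon bases of Cntnap1. Cntnap2, the membrane partner of Cntn2, had 0 reads in control and 5, 11 and 9 in induced libraries. With these reads taken as counted, Cntnap2 was at least 8.69-fold higher against 3 reads over the control group. It was not tested, and of the 5 remaining genes of the Cntnap family in the list none had more than 1 read in either group.

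Of 20 co-receptors and ligands of L1-type molecules and Ncam1, 19 were tested, with 10 higher, 4 lower and a median of 0.15. Plxna4 and Nrp2, parts of semaphorin receptors, rose by 2.30 and 1.24, and the secreted semaphorin Sema3c rose by 2.27 (edgeR adjusted p 4.25e-16, 1.65e-12 and 1.13e-15). Nrp1, the neuropilin that binds L1cam, had a log2 fold change of -0.05 and was not past the threshold (edgeR adjusted p 0.406). Gdnf, a growth factor that can signal through Ncam1, had a log2 fold change of -1.61, while its co-receptor Gfra1 rose by 0.98 (edgeR adjusted p 6.18e-09 and 1.73e-07). Its usual receptor Ret had no reads before and 3 reads after induction. Gm16277 on the opposite strand covers 7.60% of the exon bases of Gfra1. Fgfr1, the FGF receptor bound by Ncam1, rose by 0.15 (edgeR adjusted p 0.00666).

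Of 20 adaptors to the cytoskeleton, 19 were tested, with 9 higher, 5 lower and a median of 0.16. Ezr, the membrane linker ezrin, had a mean of 490 ± 7.67 CPM before and 1913 ± 17.6 CPM after induction (SD, n = 3) and rose by 1.97 (log2, edgeR adjusted p 2.15e-17). The ankyrins did not move as one: Ank3, the ankyrin of the node and axon initial segment, had a log2 fold change of -2.00, Ank2 of 0.23 and Ank1 of -0.34 (edgeR adjusted p 4.85e-14, 0.0297 and 0.167). Sptbn4, the spectrin that works with Ank3, had a log2 fold change of -2.43, and the more widely used Sptbn1 rose by 0.68. Exons of other genes cover 6.37% of the exon bases of Ank1 and 3.94% of those of Sptbn4. Epb41l3, a band 4.1 protein, and Gap43, a growth cone protein, had log2 fold changes of -1.01 and -2.88.

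Of 17 genes for shedding and polysialylation, 11 were tested, with 6 higher, 4 lower and a median of 0.19. Pcsk5, a proprotein convertase, had 8, 6 and 8 reads in control and 396, 416 and 384 in induced libraries (log2 fold change 5.80, SE 0.17, edgeR adjusted p 2.06e-15). Bace2 and the sialidase Neu1 rose by 2.12 and 1.17 (edgeR adjusted p 2.07e-10 and 1.48e-12). Bace1, the protease known to cleave Chl1, rose by 0.36, and Adam10, which releases L1-type ectodomains, had a log2 fold change of -0.15. Adam17, with the same activity, was not past the threshold at 0.04. Exons on the opposite strand cover 32.5% of the exon bases of Bace1 and 4.35% of those of Adam17. Without strand, reads from there cannot be told apart, so the small rise of Bace1 is uncertain. Of the enzymes that add polysialic acid to Ncam1, St8sia2 had 0 reads in all libraries and St8sia4 had 1 read in 1 induced library.

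Of 51 other adhesion and guidance receptors of the immunoglobulin superfamily, 31 were tested, with 16 higher, 11 lower and a median of 0.24. Bsg, or basigin, went from 1535 ± 35.0 to 6807 ± 385 CPM, and Cadm4 from 10.8 ± 0.443 to 119 ± 12.7 CPM (SD, n = 3). They rose by 2.15 and 3.45 (log2, edgeR adjusted p 2.19e-17 and 1.40e-16). Emb, the close relative of basigin, had a log2 fold change of -1.85 (edgeR adjusted p 1.78e-14), with Gm17509 on the opposite strand over 9.93% of its exon bases. Alcam and the GPI-anchored Opcml rose by 1.82 and 2.72. Vcam1, Robo1 and Dscam had log2 fold changes of -1.02, -2.35 and -2.71.

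**Figure D5:**
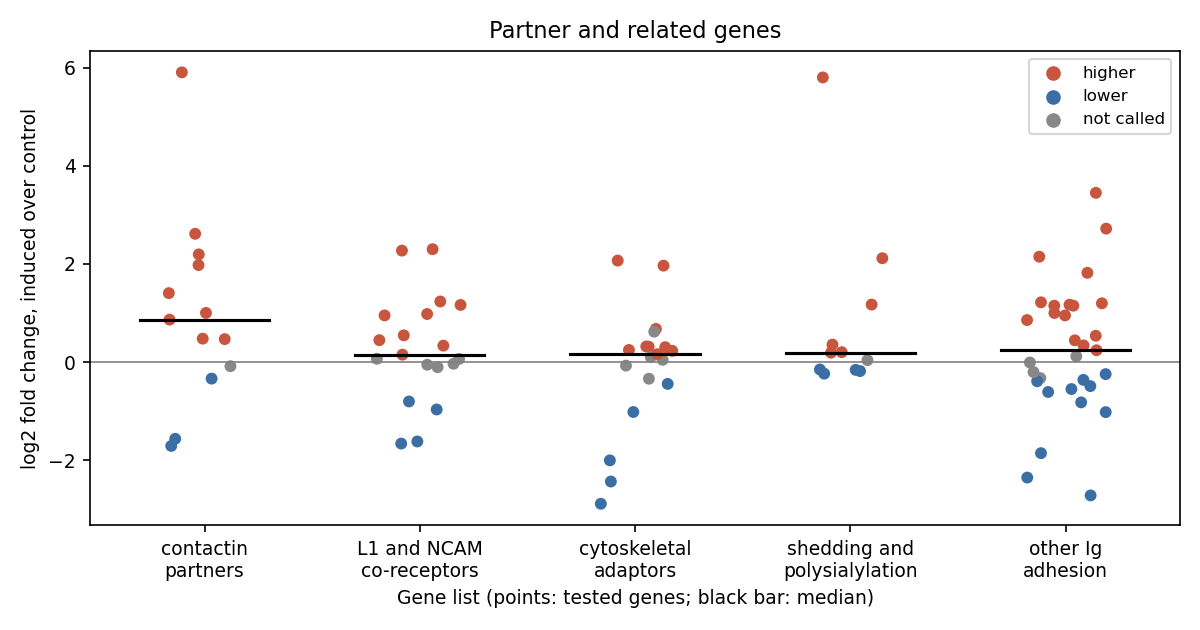
Log2 fold change, induced over control, of the tested genes of 5 partner lists; each point is a gene, coloured by its call, and the black bar is the median. The highest points are Ptprz1 (5.90) and Pcsk5 (5.80), and each list holds genes in both directions.

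Markers of other cells that carry these molecules were read beside them. The summed level of 16 neuron markers was 91.5 to 96.4 CPM in control and 30.4 to 34.2 CPM in induced libraries, most of it Tubb3, which fell by 1.61 on the log2 scale. Of the 3 neuron markers tested (Tubb3, Syt1 and Prph), 1 was higher and 2 were lower, so Tubb3 shows only the falling side of a mixed list. Snap25, Elavl4, Th and Chat had 0 reads in all libraries and Rbfox3 had 1 read. For 12 glia markers the sum was 173 to 180 CPM in control and 339 to 353 CPM in induced libraries, most of it Pmp22 and Mbp, which rose by 0.93 and 1.39. Of the 6 glia markers tested, 4 were higher and 2 were lower. Pmp22, Mbp, S100b and Erbb3, the markers given values above 0 here, all rose and so show only one side of a mixed list. Sox10 and Foxd3, which define Schwann cells and their precursors, had 0 reads in all libraries, while S100b rose from 3 to 81 reads and Erbb3 from 15 to 84.

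Cardiomyocyte markers, 9 in number, summed to at most 1.68 CPM in control and 3.93 to 4.35 CPM in induced libraries. Only 2 were tested: Myl7, which went from 0 to 74 reads, was higher, and 1 was not past the threshold. The 7 endothelial markers summed to 1.60 to 1.88 and 1.21 to 2.30 CPM, with Tie1 at 0. The 6 leukocyte markers summed to 1.92 to 2.39 and 26.4 to 32.2 CPM, nearly all of it Cd68, and Ptprc, Itgam, Tyrobp and Cd3e had 0 reads. Gm49368 on the same strand shares 68.7% of the exon bases of Itgam, so 0 reads of Itgam is a weak sign of its absence. Whether the changes of the glia and cardiomyocyte markers and of Cd68 had a part in those of the family was not tested.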

How the data were processed

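RNA of 3 control and 3 induced libraries was sequenced. Raw read counts per gene were deposited, and the submitters' processing notes name HISAT2 2.0.5, featureCounts 1.5.0-p3, DESeq2 1.16.1 and mm10. The strand setting is not given in the sources used here. The authors also deposited FPKM values, count divided by gene length and library depth (0.980 to 1.03 times the total count). Deposited fold changes, p-values and Gene Ontology results of the authors were not used. Gene coordinates match GENCODE M21 (GRCm38) for all 10 genes. The genes and the partner lists were chosen with earlier results of these data known.

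The deposited counts were tested with edgeR 4.0.16 (R 4.3.3), using filterByExpr (minimum count 10, minimum total 15; 14246 genes kept), TMM scaling and the two-sided quasi-likelihood test of induced against control cells, with Benjamini-Hochberg adjustment over all genes tested. The SE is the log2 fold change divided by the root of F. Levels are mean ± SD of TMM-scaled CPM. A gene with 0 reads in a group is given a bound against 3 counts summed over that group. This bound takes the reads of the other group as counted, without their counting error. Intervals and the limit of 3 counts cover counting error only. Named by rule are the 10 genes, Cntn5, Ncam2 and markers at 0. From each partner list the rule adds up to 3 genes with the smallest p that were called and did not overlap between groups. Further genes were picked out after their values were seen, and their single values were not followed under the alternatives. Alternatives used DESeq2 1.42.0 and limma 3.58.1, other scalings and filters, a replicate block and leaving out each library.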

Additional observations from a re-analysis of the deposited data

How the results depend on the processing

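The number of genes changed was 9225 of 14246 tested. Under the alternatives it lay between 7783 of 14246 (adjusted p of 0.01) and 9765 of 25705 (no filter). With a library left out it lay between 8514 and 9348, with 14507 to 14562 tested. The family count of 6 was 4 of 4 under a stricter filter, where Cntn3 and Nfasc were no longer tested and 8845 of 13163 genes were called. With limma on log2(FPKM + 1) or log2(FPKM + 0.1) it was 4 of 6, beside 8887 and 8894 of 14246 genes. There the calls of Nrcam (0.14 and 0.61) and Nfasc (0.06 and 0.40) were lost. It was 7 of 8 with DESeq2, where 8471 of 18671 genes were called, and 7 of 10 with no filter. Both add L1cam. With a library left out it was 5 to 6 of 6. The count of 78 over the lists lay between 72 of 94 (adjusted p of 0.01) and 82 of 119 (no filter), and between 73 and 77 with a library left out.

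Of 305 values of the 22 tested genes named by rule, 0 changed direction under alternatives and 6 lost their call. These were 5 of Nrcam and Nfasc, and Ncam2 with limma on log2(FPKM + 1) (-0.09). The stricter filter left Ncam2, Cntn3 and Nfasc without a value. Without induced replicate 3, which held both reads of the induced group, the log2 fold change of Ncam2 was -6.92, against -4.23. The cause of these changes was not tested beyond this.

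Same-numbered libraries did not deviate together (correlations -0.00, -0.02 and 0.03). With the replicate block 9063 genes were called, with 6 of the family and 78 of the list genes, and none of the 22 named genes above changed its call; single calls of other genes were not followed.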

Other observations

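Several genes of the list of other adhesion and guidance receptors had too few reads for the test but groups that did not overlap. They were picked for this, and list genes with few reads that overlapped were not counted. Among tested genes, which have more reads, 68.6% did not overlap. Icam2, an intercellular adhesion molecule, had no reads before and 10 reads after induction. Esam and Nectin4, adhesion molecules of endothelium and epithelium, went from 7 to 32 and from 7 to 26 reads. Robo2, a Slit receptor, went from 21 to 5 reads. These sums are over 3 libraries and are given as values only.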
